A study of Mus musculus with 8 samples.

Results

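The miRNA machinery studied here comprises 10 genes: the Argonautes Ago1, Ago2, Ago3 and Ago4, the Argonaute partners Tnrc6a, Tnrc6b and Tnrc6c, and the processing genes Dicer1, Drosha and Xpo5. They were chosen by name, and a cluster of Argonaute-bound reads was assigned to one of them where the table's 3' UTR, CDS, 5' UTR or intron column gave exactly that symbol. All 10 genes had at least 1 cluster, and together they held 138 of the 70142 clusters in the table, which names 9962 genes in all. The study recovered and sequenced RNA that had been crosslinked by UV to a Flag-tagged Argonaute (FLAG-Ago HITS-CLIP) from the forebrain of mice aged 8 to 14 weeks. In 5 Flag-Ago2 libraries the mice were Camk2a-cre; Rosa-Stopfl/fl-Flag-Ago2, so that Cre driven by the Camk2a promoter switches on the tagged protein, and in 3 control libraries the mice were Rosa-Stopfl/fl-Flag-Ago2 without Cre. The tagged allele is thus carried by both groups, and each immunoprecipitation used part of a forebrain. The table gives 1 read count per cluster and does not say from which of the libraries, so no value below has a replicate error or a control value, no test was possible, and Flag-Ago2 and control mice are not compared.

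In the cytoplasm, an Argonaute protein loaded with a miRNA pairs with mRNAs mainly through the seed, the bases near the miRNA's 5' end, and Tnrc6 proteins (GW182 in older usage) bind Argonaute and recruit the deadenylases that shorten the poly(A) tail. The miRNA itself is made in steps: Drosha cuts the primary transcript in the nucleus, exportin-5 (Xpo5) carries the hairpin out, and Dicer cuts it to a duplex. The mRNAs of these proteins can themselves be bound by Argonaute, and the pairing of let-7, miR-103 and miR-107 with DICER1 mRNA is an example known from human cells.

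The sites below are those on which the description turns. The first lines give mature miRNAs from RefSeq (GRCm38.p6), 5' to 3', with bases 2 to 8 in capitals. miR-124 was counted in the table and is named without a sequence.
mmu-miR-128-3p: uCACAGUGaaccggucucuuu
mmu-miR-27b-3p: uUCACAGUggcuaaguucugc
mmu-miR-26a-5p: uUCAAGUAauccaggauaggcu
mmu-miR-23a-3p: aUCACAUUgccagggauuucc
mmu-miR-125b-5p: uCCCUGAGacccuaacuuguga
mmu-miR-103-3p: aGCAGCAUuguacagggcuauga
mmu-miR-9-5p: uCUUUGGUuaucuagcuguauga
mmu-miR-30a-5p: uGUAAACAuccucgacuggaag
mmu-miR-22-3p: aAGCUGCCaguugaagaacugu
No seed of bases 2 to 8 was shared among these 9, but the 6-mers of miR-128 and miR-27 overlap when shifted by 1 base, so that a single site can be counted for both.

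The next lines give matches from the deepest 3' UTR cluster of each gene that held one of the described families (mm10, transcript strand, 5' to 3'). They are a selection: that cluster also held matches of miR-19, miR-22, miR-92, miR-128 and miR-137 in Tnrc6c, of miR-153 in Ago2, and of miR-124 in Tnrc6b and Drosha. Capitals mark the bases complementary to miRNA bases 2 to 7, the 6-mer that the table counts.
Tnrc6a, miR-128 and miR-27: gtatagacgtaaACTGTGAcctc
Tnrc6a, miR-17/20/93: ctgcacattctcCACTTTgttt
Tnrc6a, miR-26: atcagtttgaatACTTGAatca
Tnrc6a, miR-23: gccaatattataATGTGAaagg
Tnrc6b, miR-9: tctggacaggccCCAAAGgcag
Tnrc6c, miR-30, upstream: tcatgtgtaaatGTTTACtcaa
Tnrc6c, miR-30, downstream: gggctcccacctGTTTACagac
Ago1, miR-22: ctctgggaagagGCAGCTcact
Ago2, miR-128: aggtaggaatggACTGTGcccg
Drosha, miR-128, miR-27 and miR-128: gcctttctaagaACTGTGACTGTGgccc
Xpo5, miR-129: tccctggcttttCAAAAAaccc
Xpo5, miR-338: tggagacagaagTGCTGGacag
These windows lie at chr7:123192960-123192982, chr7:123193056-123193077, chr7:123193090-123193111 and chr7:123193117-123193138 (+) in Tnrc6a, at chr15:80933660-80933681 (+) in Tnrc6b, and at chr11:117761876-117761897 and chr11:117762178-117762199 (+) in Tnrc6c. Those of Ago1 and Ago2 lie at chr4:126437318-126437339 (-) and chr15:73105584-73105605 (-). That of Drosha lies at chr15:12935148-12935175 (+), and those of Xpo5 at chr17:46242181-46242202 and chr17:46242213-46242234 (+). The Xpo5 sites lie in coding sequence, before the stop codon that their cluster spans, and only 15 bases of that cluster are 3' UTR. The Drosha site holds a miR-128 6-mer, a second one directly after it, and a miR-27 6-mer across their junction.

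Exonic clusters, meaning those in 3' UTR, CDS or 5' UTR, were present on 9 of the 10 genes, where 36.1% of the 21910 annotated protein-coding genes had one. 3' UTR clusters were present on 8 of 10 genes, against 21.7% of all protein-coding genes, and CDS clusters also on 8 of 10, against 27.1%. Clusters that named the gene in its introns alone were present on 8 of 10, against 28.3%. The annotated genes include genes that forebrain does not express, and the shares among brain-expressed genes were not measured. Reads per gene also rise with the level of the mRNA and the number of cells that hold it, and these cannot be told apart here.

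Over the 10 genes, 94 exonic clusters held 4111 reads. Of these clusters 43 were in 3' UTRs with 2600 reads, 50 in CDS with 1497 reads and 1 in a 5' UTR with 14 reads. Many of the CDS clusters also named an intron of the same gene, so their reads and seed matches may lie partly outside coding sequence. The 3' UTR share of exonic clusters was 45.7% (95% Wilson interval 36.0 to 55.8) in the machinery genes and 40.0% in all protein-coding genes, a value within that interval. Intron-only clusters made up 31.9% (24.7 to 40.1) of the 138 clusters in the machinery genes and 58.8% in all protein-coding genes. The 44 intron-only clusters held 938 reads, and their median of 18 reads equalled that of all intron-only clusters in the table. The intervals cover counting error only, since clusters of a gene share its mRNA and its libraries.

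**Figure D1:**
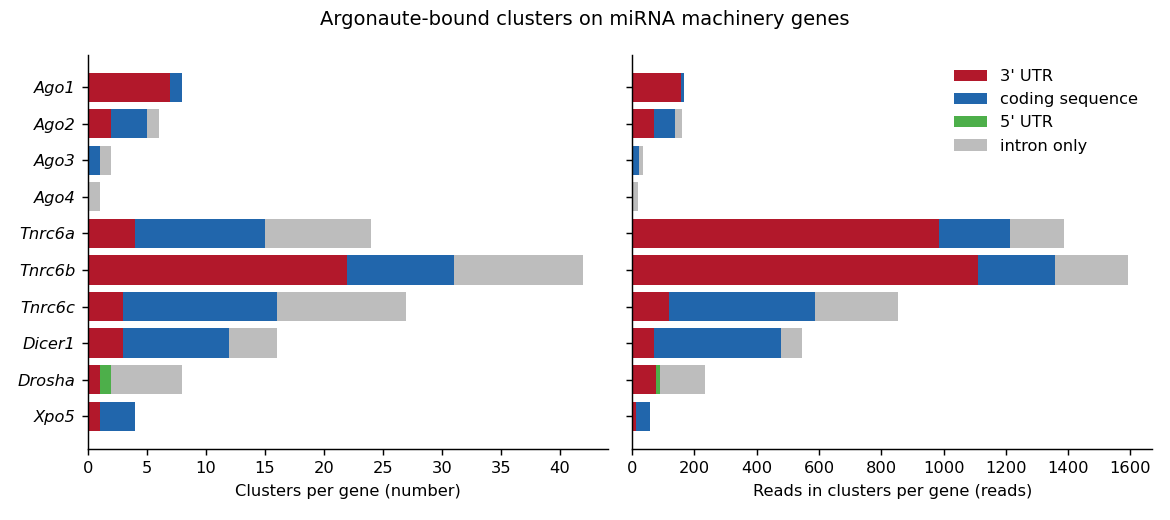
Clusters per gene (left, number) and reads in those clusters (right, reads) for the 10 genes, with bars divided by region. Tnrc6b had the most clusters, 42, and Tnrc6a and Tnrc6b held most of the 3' UTR reads, while Ago4 had a single intron-only cluster.

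The 3 families within the machinery differed in the number of clusters and reads they held. The Tnrc6 genes held 62 exonic clusters and 3157 reads, the 3 processing genes 18 clusters and 625 reads, and the 4 Argonaute genes 14 clusters and 329 reads. The Tnrc6 genes thus had 76.8% of the exonic reads of the machinery. Single clusters of 775 reads on Tnrc6a and 581 reads on Tnrc6b entered this share. Annotated 3' UTR length did not follow the same order, with 32.2 kb in the Argonaute genes, 16.5 kb in the Tnrc6 genes and 5.35 kb in the processing genes. Per kb of 3' UTR there were 1.75 clusters in the Tnrc6 genes, 0.935 in the processing genes and 0.280 in the Argonaute genes, and 0.277 over all protein-coding genes. The pooled Argonaute value was thus close to that of all genes, but it describes no single Argonaute. Ago1 had 1.56 per kb, Ago2 0.181 and Ago3 and Ago4 0. Among genes with any 3' UTR cluster the median was 0.819. Per kb of CDS the Tnrc6 genes had 1.92 clusters, the processing genes 0.892 and the Argonaute genes 0.482, against 0.358 over all protein-coding genes.

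Among the Argonautes, Ago1 had the most 3' UTR clusters. They held 45, 28, 23, 22, 15, 14 and 10 reads and lay between 1324 and 3950 bases after the stop codon of a 4491-base 3' UTR. No cluster lay in its first kb. The deepest, with 45 reads, held the miR-22 site printed above, in which the pairing extends to base 8. Of the 21024 protein-coding genes with an annotated 3' UTR, 70 had more 3' UTR clusters than the 7 of Ago1. Its only CDS cluster held 11 reads in exon 13 of 19.

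Ago2, the Argonaute with well-established slicer activity in mammals, had 2 clusters in an 11064-base 3' UTR, with 37 and 34 reads at 1368 and 118 bases after the stop codon. The remainder of that 3' UTR held no cluster, and only 4.29% of its bases lay inside one. In its CDS, clusters held 45, 13 and 10 reads in exons 6, 7 and 13 of 19. The mice carry an Ago2 transgene, and reads from the transgene and from the endogenous coding sequence cannot be told apart. Of the 25-base words in these 3 CDS clusters, 40.7%, 16.7% and 37.5% also occur in annotated transcripts of Gm5281 or Gm6088. For the 10-read cluster this includes transcripts of Gm12904. Words that reach bases outside annotated exons, where no sequence was read, count as unshared. The shares are thus lower bounds for the exon part of the clusters, and the origin of their reads is uncertain.

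Ago3 and Ago4 had no 3' UTR cluster, although their longest annotated 3' UTRs measure 12742 and 3682 bases. Ago3 had 1 CDS cluster of 22 reads in exon 7 of 19, to which the table attached 2 circRNA identifiers, and 1 intron-only cluster of 12 reads. Ago4 had 1 intron-only cluster of 18 reads and no exonic cluster. A cluster enters the table from 10 reads upwards, so binding below that depth was not detectable. A long 3' UTR without a cluster was common among genes with a 3' UTR of 10 kb or more: 32 of these 62 genes, or 51.6%, had a 3' UTR cluster, and 30 had none.

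**Figure D2:**
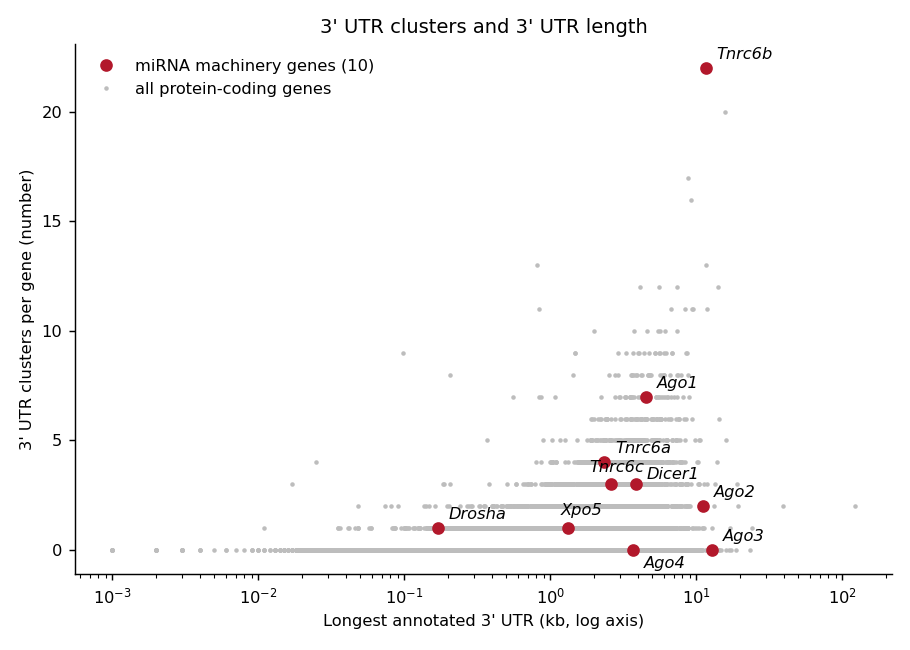
Number of 3' UTR clusters per gene against the longest annotated 3' UTR (kb, log axis) for the 10 machinery genes (red, named) and all protein-coding genes with an annotated 3' UTR (grey). Tnrc6b stands at the top with 22 clusters, and Ago3, with the longest 3' UTR of the 10 genes, stands at 0.

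Tnrc6b had 22 clusters in its 11609-base 3' UTR, and none of the other genes with an annotated 3' UTR had as many. The clusters ran along its whole length, from one that spans the stop codon with 22 reads to one at 10986 bases after it with 97 reads, and covered 31.2% of its bases. Depth was uneven. A single cluster at chr15:80933452-80933743 (+), 4121 bases after the stop codon, held 581 reads, and the other 21 held between 10 and 97 reads. Only 9 of the 9284 3' UTR clusters in the table were deeper than that cluster, and without it the exonic reads of Tnrc6b were 777 in place of 1358. It counted 1 miR-124 match in the table and held the miR-9 site printed above, a 6-mer without further pairing at its flanks.

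Tnrc6a had fewer 3' UTR clusters but the deepest one of the machinery. Its 4 clusters held 775, 133, 39 and 37 reads, centred 112, 1778, 1233 and 2215 bases after the stop codon in a 2345-base 3' UTR. The 775-read cluster, chr7:123192927-123193199 (+), spans the stop codon in exon 24 of 24, and 7 of all 3' UTR clusters were deeper. It held 63.9% of the gene's 1213 exonic reads, and 438 remained without it. It carried 5 described families, with a miR-128 6-mer 21 bases after the stop codon and matches of miR-26 and miR-23 at 151 and 178 bases.

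Tnrc6c had 3 clusters in a 2588-base 3' UTR, with 27, 12 and 80 reads at 596, 804 and 1162 bases after the stop codon. The 80-read cluster held the 2 miR-30 sites printed above, of which the downstream one also has an A opposite miRNA base 1. Its coding sequence held 13 clusters with 467 reads, or 2.28 clusters per kb, against 3 clusters with 119 reads, or 1.16 per kb, in the 3' UTR. Of the 13 CDS clusters 7 carried a circRNA identifier, and without them 6 clusters with 250 reads remained, or 1.05 per kb, which is below the 3' UTR value. Its deepest CDS cluster held 93 reads, centred in exon 9 of 22, and contained no 6-mer of any described family. That cluster also named an intron of the gene, and part of it lay outside annotated exons.

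In 3' UTR clusters, the miR-26 family matched all 3 Tnrc6 paralogues and no other machinery gene. It was found in 1 cluster of Tnrc6a, 4 clusters of Tnrc6b and 2 clusters of Tnrc6c. The Tnrc6 genes held 29 of the 43 3' UTR clusters, and miR-23 matched the same 3 genes alone. The 3' UTRs of other machinery genes also held miR-26 6-mers, such as 5 in Ago3 and 3 in Dicer1, but outside clusters. A CDS cluster of Dicer1 with 84 reads held a miR-26 6-mer as well. In Tnrc6a (775 reads) and Tnrc6c (27 reads) the miR-26 site is an 8mer, which pairs to bases 2 to 8 and has an A opposite base 1, and a miR-23 8mer starts 27 bases after it in either gene. The Tnrc6c pair is printed here because it has the same spacing as the Tnrc6a pair above, at chr11:117761422-117761443 and chr11:117761449-117761470 (+).
Tnrc6c, miR-26: aaacatgcaaatACTTGAaccc
Tnrc6c, miR-23: gccaataccgaaATGTGAacac
This arrangement was picked out after the values were seen. Matches of both families occurred in 47 of the 9284 3' UTR clusters, or 0.506%. The longest stretch that the annotated 3' UTRs of Tnrc6a and Tnrc6c share is 18 bases, so a longer read matches only 1 of them exactly. In Tnrc6b the deepest cluster with a miR-26 match had 97 reads and an 8mer at 10865 bases after the stop codon, with no miR-23 match.

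**Figure D3:**
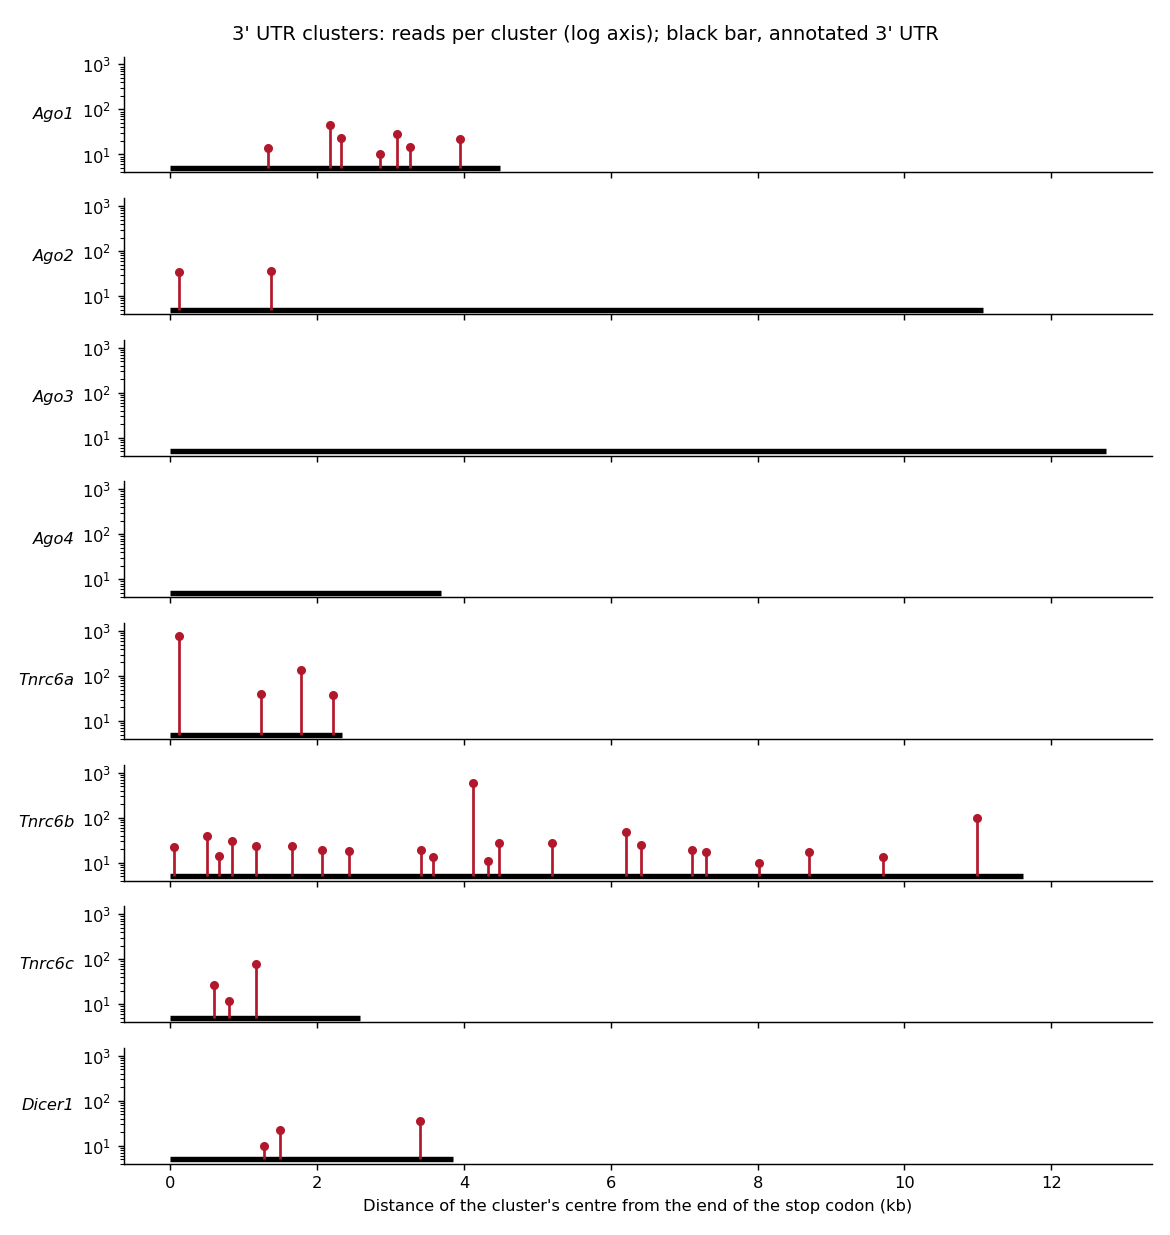
Reads per 3' UTR cluster (log axis) against the distance of the cluster's centre from the end of the stop codon (kb) for 8 genes, with the annotated 3' UTR as a black bar. The clusters of Tnrc6b run along the whole 3' UTR, those of Ago2 are centred at 118 and 1368 bases, and Ago3 and Ago4 have none; Drosha and Xpo5 are not drawn because their clusters are centred before the stop codon.

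Most exonic clusters and reads of Dicer1 were counted as CDS. The gene had 9 CDS clusters with 408 reads and 3 3' UTR clusters with 69 reads. A CDS majority also held over all protein-coding genes, with 13019 of 23037 exonic clusters and 411225 of 730630 exonic reads. Of the Dicer1 CDS clusters only those of 175 and 31 reads named coding sequence alone, and the others also named an intron. The deepest CDS cluster, chr12:104702819-104703155 (-), held 175 reads in exon 21 of 27, and 94 of the 12960 CDS clusters in the table were deeper. It held 36.7% of the gene's 477 exonic reads, and 302 remained without it. A further CDS cluster held 84 reads in exon 14. The 3' UTR clusters held 36, 23 and 10 reads at 3397, 1496 and 1274 bases after the stop codon.

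Matches of let-7 and of the miR-103 family were found in Dicer1 clusters in the 3' UTR and the CDS. The 36-read cluster held no match of the described families. The 23-read cluster held an 8mer of the family of miR-103 and miR-107, and the 10-read cluster held a let-7 6-mer and a further miR-103 match among 8 families. The 175-read CDS cluster also held a miR-103 8mer, and a 29-read CDS cluster in exon 24 held a let-7 8mer, the longest let-7 pairing in a Dicer1 cluster. In the 3' UTR clusters of the machinery as a whole, let-7 matched 2.33%, against 4.17% of all 3' UTR clusters, and the miR-103 family 6.98%, against 9.58%. The sites are printed because these families are the known partners, the 3' UTR sites at chr12:104690166-104690187 and chr12:104690333-104690354 (-) and the CDS sites at chr12:104703047-104703068 and chr12:104694693-104694714 (-).
Dicer1, miR-103, 3' UTR: tgcttcatgtaaTGCTGCactt
Dicer1, let-7, 3' UTR: ctgtgactataaTACCTCttaa
Dicer1, miR-103, CDS: agtccctgaacaTGCTGCacat
Dicer1, let-7, CDS: gcgattttggacTACCTCataa
Of the 25-base words of the 23-read cluster 16.2% occur in transcripts of other genes, so the origin of part of its reads is uncertain.

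Drosha and Xpo5 had few exonic clusters, and the 3' UTR cluster of each spans its stop codon. That of Drosha, chr15:12934973-12935175 (+), held 76 reads, named the gene in 3' UTR, CDS and intron at once, and made up 84.4% of the 90 exonic reads. The other exonic cluster of Drosha held 14 reads in the 5' UTR, the only 5' UTR cluster of the machinery. Drosha's 6 intron-only clusters held 145 reads, the deepest 75. The stop-codon cluster of Xpo5 held 12 reads, and its 3 CDS clusters held 22, 14 and 10 reads. The 3' UTR of Drosha measures 169 bases, so its 5.92 clusters per kb rest on a single cluster.

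Part of the coding clusters of the 3 Tnrc6 genes lay in the long exon in the first part of each coding sequence. Exon 6 of Tnrc6a measures 2583 of 5688 coding bases and held 6 of 11 CDS clusters, with 145 of 229 reads. Exon 8 of Tnrc6b measures 2340 of 5430 bases and held 4 of 9 clusters, with 136 of 246 reads. Exon 5 of Tnrc6c measures 2601 of 5700 bases and held 3 of 13 clusters, with 119 of 467 reads. All 3 of these Tnrc6c clusters carried a circRNA identifier. Each of the 3 exons is the longest of its gene before the last. In Dicer1, the first of the 8 clusters centred in coding exons lay at 37.4% of the coding sequence.

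**Figure D4:**
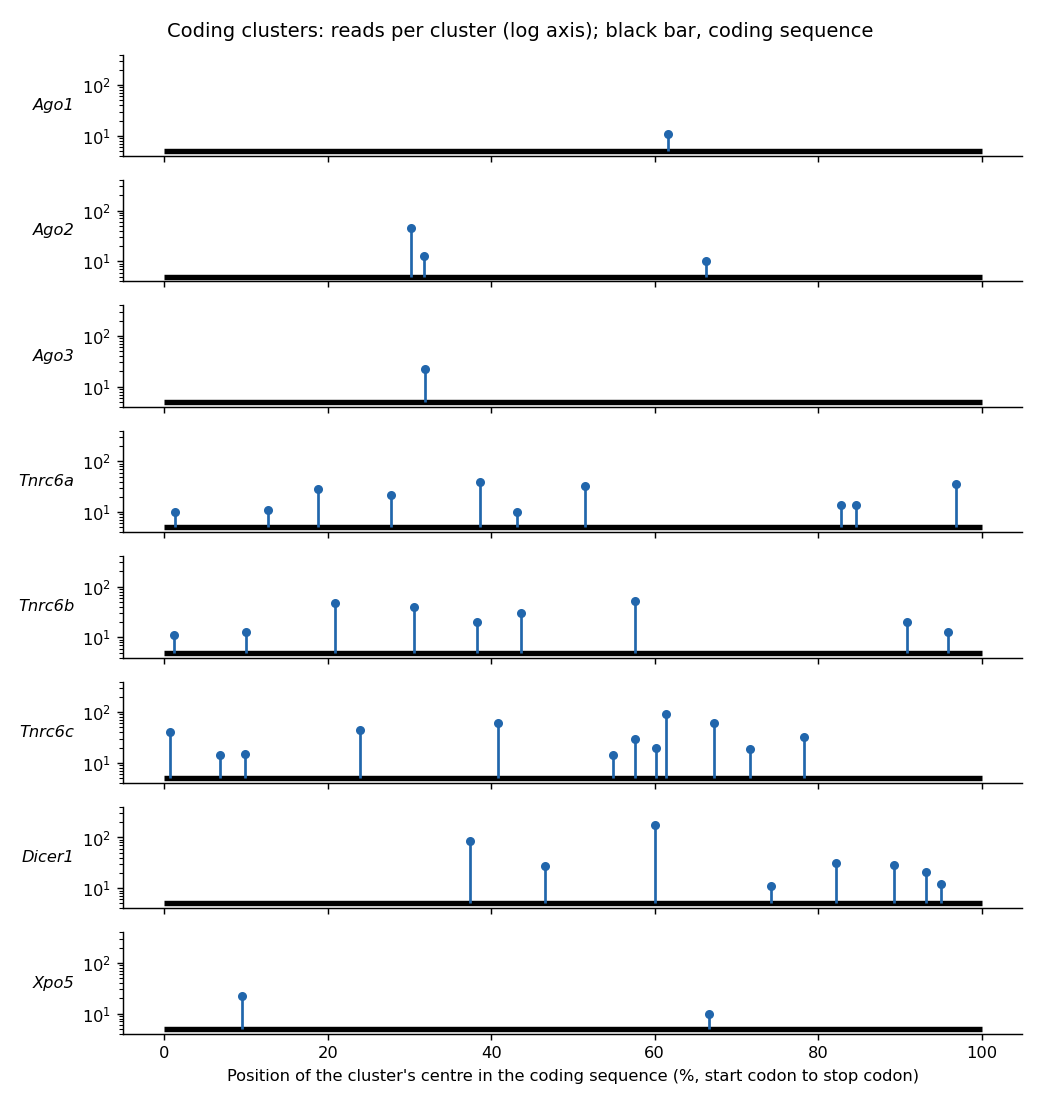
Reads per coding cluster (log axis) against the position of the cluster's centre in the coding sequence (%) for 8 genes. Clusters of the Tnrc6 genes are spread along the coding sequence, those of Dicer1 begin at 37.4%, and clusters whose centre lies outside the main transcript's coding exons are not drawn (10 of 11 clusters of Tnrc6a, 12 of 13 of Tnrc6c, 8 of 9 of Dicer1 and 2 of 3 of Xpo5 are shown).

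Seed matches of 30 families known from brain were counted in the clusters, where 1 match means at least one 6-mer that overlaps the cluster. In the 43 3' UTR clusters miR-128 was the most frequent family. It matched 10 clusters, or 23.3% (13.2 to 37.7), against 13.6% of all 3' UTR clusters, and the 10 clusters belonged to 7 of the 8 genes that had a 3' UTR cluster, with Xpo5 as the exception. The families that followed were miR-124 in 8 clusters (18.6%, 9.74 to 32.6) against 10.3%, miR-26 in 7 (16.3%, 8.12 to 30.0) against 6.42%, miR-27 in 6 (14.0%, 6.56 to 27.3) against 13.3% and miR-129 in 6 (14.0%, 6.56 to 27.3) against 6.02%. Of these 5 families, miR-26 and miR-129 had an interval that lay above the share of all clusters, and the intervals of the other 3 included it. Among the remaining families this held for miR-19, in 5 clusters (11.6%, 5.07 to 24.5) against 3.89%, and miR-92, in 4 (9.30%, 3.68 to 21.6) against 3.52%. The intervals are not corrected for the 30 families looked at. When 7 paired bases were required, miR-129 and miR-92 matched 0 of the 43 clusters, miR-19 4.65% and miR-26 6.98%. In the central 60 bases of the clusters miR-129 matched 0 and miR-19 2.33%. The 6-mer shares of all clusters are no measure for these stricter values. In the 8360 3' UTR clusters with complete exon sequence, 133 miR-26 matches paired to base 8. For miR-19, miR-129 and miR-92 there were 130, 104 and 91. At the other end, miR-7, miR-99/100 and miR-125 matched 0 of 43 clusters (Wilson upper bound 8.20%), against 7.66%, 1.25% and 6.96% of all 3' UTR clusters.

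The miR-128 matches were mostly short. Of 11 miR-128 6-mers in the 3' UTR clusters 1, in the 10-read Dicer1 cluster, paired to base 8 as well, against 34.2% of the miR-128 6-mers in all 3' UTR clusters with complete exon sequence. The miR-23 matches ran the other way, with 4 of 4 paired to base 8 against 36.6%. So did miR-181 with 3 of 3 and miR-30 with 2 of 2, while miR-129 had 0 of 7 and miR-92 0 of 4. Each of these values rests on few matches, and they were picked from many families. Over the 29 families with a sequence, 33 of 95 matches in the machinery genes, or 34.7%, paired to base 8, against 32.2% in all clusters. Of the 95 matches 35, or 36.8%, lay within 30 bases of the centre of their cluster, and the median cluster was 140 bases wide. The share expected from cluster width was not computed, so the value does not show a concentration at the centre.

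In the 50 CDS clusters the leading family was miR-125, which matched none of the 3' UTR clusters. The annotated 3' UTRs of the 10 genes held 14 miR-125 6-mers. Of these, 5 lay in Ago2, 4 in Ago3 and 2 in Ago4, where clusters covered 4.29%, 0% and 0% of the 3' UTR. Tnrc6b had 1, and Tnrc6a and Tnrc6c had 0, so 3' UTR and CDS cannot be compared for miR-125. In CDS, miR-125 matched 12 clusters, or 24% (14.3 to 37.4), against 5.39% of all CDS clusters. The Tnrc6 genes held 33 of the 50 CDS clusters, or 66%. Of the 12 clusters, 10 were on these genes: 4 on Tnrc6a, 4 on Tnrc6b and 2 on Tnrc6c. Dicer1 and Xpo5 had 1 each. Of the 10 matches for which exon sequence was read 7 paired to base 8, against 45.1% of the miR-125 matches in all CDS clusters with complete sequence, and 3 were 8mers. These 8mers are printed because they are the longest miR-125 pairings of the machinery. They lie at chr7:123187464-123187485, chr15:80879918-80879939 and chr15:80884307-80884328 (+), in clusters of 14, 39 and 53 reads.
Tnrc6a, miR-125: aagttgaccaccTCAGGGacag
Tnrc6b, miR-125, exon 8: atctggggtctcTCAGGGagaa
Tnrc6b, miR-125, exon 10: caccgccggctcTCAGGGaagc
After miR-125 came miR-128 in 9 CDS clusters (18.0%, 9.77 to 30.8) against 11.4%, and miR-7 in 8 (16%, 8.34 to 28.5) against 6.36%. Besides miR-125 and miR-7, the interval lay above the share of all CDS clusters for miR-17/20/93, in 5 clusters (10%, 4.35 to 21.4) against 3.16%, and miR-218, in 7 (14%, 6.95 to 26.2) against 6%. The CDS clusters of the machinery had a median width of 149.5 bases, against 133 in all CDS clusters, and a wider cluster holds more matches of any 6-mer. The 3' UTR clusters had a median width of 140 bases, against 144. No described family was found in 4.00% of the machinery's CDS clusters, against 22.8% of all, and in 9.30% of its 3' UTR clusters, against 17.1%.

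**Figure D5:**
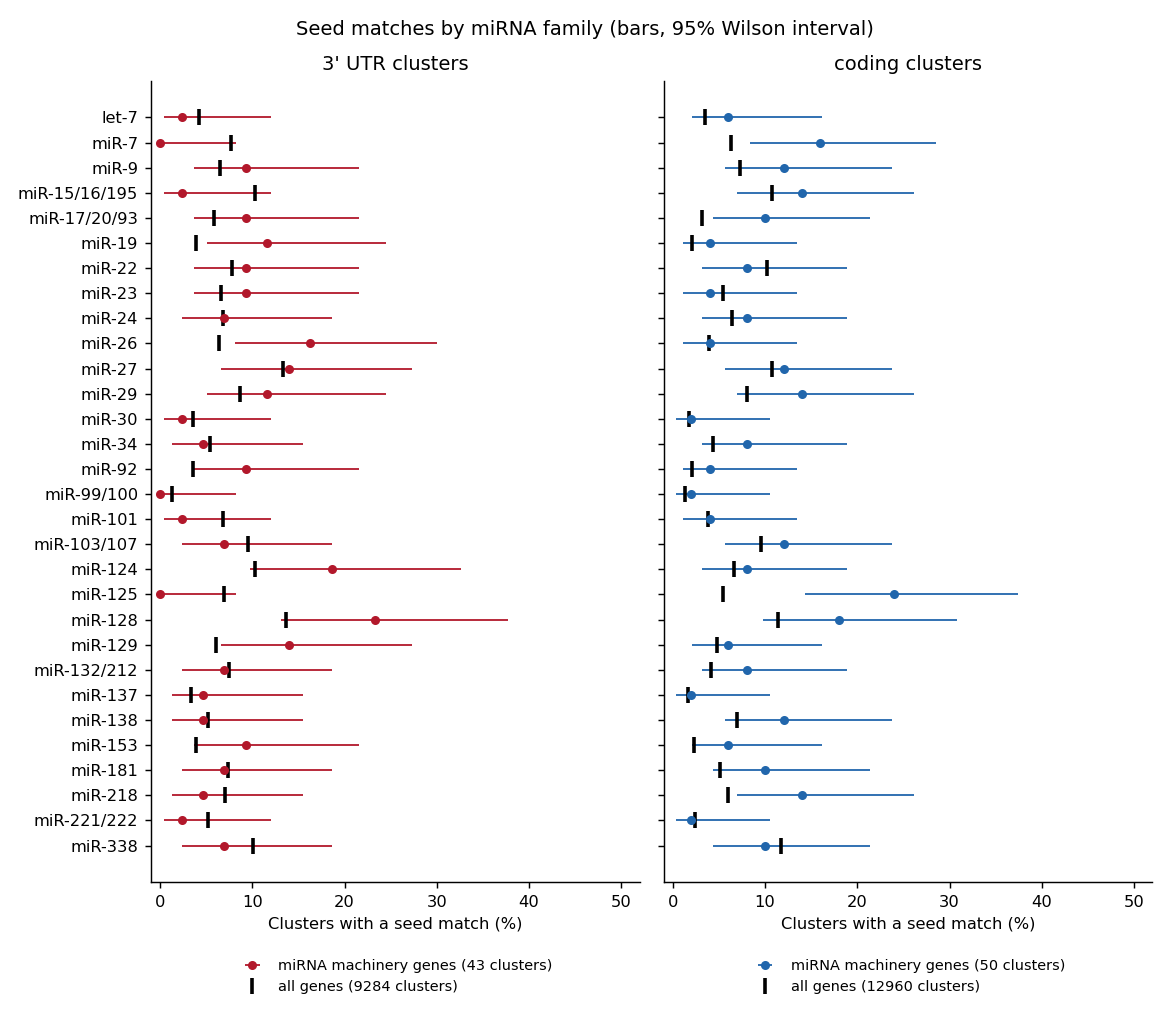
Share of clusters with at least 1 match (%) of each of 30 miRNA families, in machinery genes (points, with 95% Wilson intervals) and all genes (black ticks), for 43 3' UTR clusters (left) and 50 coding clusters (right). miR-125 stood at 24% of coding clusters, against 5.39% in all genes, and at 0 of the 3' UTR clusters. The 3' UTR of Tnrc6b held 1 miR-125 6-mer and those of Tnrc6a and Tnrc6c held 0.

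Most seed matches in the annotated 3' UTRs of the machinery lay outside clusters. The 3' UTRs of the 10 genes held 629 6-mers of the 29 families, and 93 of them, or 14.8%, were in clusters, which covered 13.0% of the bases. In clusters were 44.8% of the matches of Tnrc6c, 35.9% of those of Tnrc6a and 33.3% of those of Tnrc6b, where clusters covered 31.0%, 26.2% and 31.2% of the bases. Dicer1 (17.6% against 14.3% of bases) and Drosha (all 3 matches, against 31.4%) lay on the same side. The matches fell short of the bases in Ago1 (15.8% against 19.1%), Ago2 (3.28% against 4.29%) and Xpo5 (0% against 1.13%). By family, 11 of 25 miR-128 6-mers lay in clusters, 4 of 10 of miR-92, 4 of 13 of miR-9 and 7 of 25 of miR-26. Lower counts included 0 of 25 for miR-7, 1 of 34 for miR-16 and its relatives, and 1 of 20 for let-7. These counts mix family with gene. Of the let-7 6-mers 7 lay in Ago2, 5 in Ago3 and 3 in Ago4, where clusters covered 4.29%, 0% and 0% of the 3' UTR. A difference between families within a gene was not tested.

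None of the 48 other pathway genes on the lists held as many exonic reads as Tnrc6a or Tnrc6b. Of the 48 genes 40 had an exonic cluster, or 83.3%, against 36.1% of all protein-coding genes, with 2814 exonic reads in all. In the group of microprocessor and nuclear partners, which also holds Ran and Ncbp1, it was 6 of 6 genes. It was led by the RNA helicases Ddx17 with 365 exonic reads and Ddx5 with 241. Among the Dicer partners and editing enzymes it was 3 of 4, led by the adenosine deaminases Adarb1 with 124 and Adar with 92. Of the genes of the CCR4-NOT and PAN deadenylase complexes, which Tnrc6 proteins recruit, listed with the poly(A)-binding protein gene Pabpc1, it was 13 of 14. The deadenylase Cnot6 with 124 and the scaffold Cnot1 with 88 led this list. Of the decapping and P-body proteins it was 11 of 16, led by the helicase Ddx6 with 165 and the decapping enzyme Dcp2 with 161. Of the turnover and tailing genes it was 7 of 8, led by Zswim8, an E3 ligase adaptor in target-directed miRNA decay, with 198, and the uridylyltransferase Tut7 with 65.

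The tissue label was checked on marker genes. The excitatory neuron markers Camk2a, Slc17a7 and Neurod6 had 618, 88 and 34 exonic reads. The astrocyte markers Slc1a2, Aldoc and Gfap had 1105, 209 and 80, the oligodendrocyte marker Mbp had 298, and the interneuron markers Gad1 and Gad2 had 117 and 146. All of these markers were thus present in a table labelled for Camk2a neurons, and the part that other cell types have in the values of the machinery genes was not tested. A circRNA identifier was attached to 25 of the 138 machinery clusters, or 18.1%, against 15.9% of all clusters in genes, and 11 of the 25 were on Tnrc6c.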

How the data were processed

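The aligner was BWA and the genome build mm10, per the submitters' processing notes. How clusters were called, from which libraries, with what use of controls and with what treatment of PCR copies is not stated in the labels. Per the file headers, the deposited values are a whole-number read count for each cluster, never under 10, and 1281 columns of seed matches per miRNA, with 0 columns of a single library or group. The planned test of 5 Flag-Ago2 against 3 control libraries could therefore not be run, depth per library is unknown, and all values are descriptions. By the numbering in their titles the libraries come from 3 experiments, so the 5 Flag-Ago2 libraries cannot be taken as independent. No use of molecular identifiers is stated, and Wilson intervals cover counting error only.

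A cluster that named a gene in several columns was counted once for it, 3' UTR before CDS, CDS before 5' UTR and introns last. A cluster counted as CDS can therefore reach into an intron. Of 9962 gene names, 9476 matched GENCODE M21 directly and 88 through RefSeq synonyms. Exon sequence came from GENCODE transcripts, on the same assembly. Counting 6-mers complementary to miRNA bases 2 to 7 that overlap a cluster gave the deposited number in 17101 of 17101 clusters with full sequence, for 29 of 29 families. Counting was checked on simulated data. Python 3.11.15 was used with pandas 2.3.3, numpy 2.4.6, scipy 1.17.1 and matplotlib 3.10.9. Positions are 1-based.

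Members and lists were chosen with earlier results of these data known. The genes named are the 10 members, their deepest cluster in each region, the 2 pathway genes per list with the most exonic reads, and the 5 families in most 3' UTR clusters; other items were picked after their values were seen. Alternatives changed the read minimum, circRNA and multi-gene clusters, the region rule, the 3' UTR length and the seed match. A result for 1 marker gene is not reported here.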

Additional observations from a re-analysis of the deposited data

Results flagged for a closer look

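A cluster on the strand opposite Dicer1, which the gene assignment above leaves out, held 49 reads at chr12:104702774-104702858 (+). It drew attention because the table lists reads there outside the sense columns. It is 85 bases wide, shares 40 bases with the 175-read sense cluster in exon 21, carries 1 circRNA identifier and holds 0 of the described families. No control value can be set beside it, and the source of its reads was not tested.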

How the results depend on the processing

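With a read minimum of 20, the exonic clusters of the machinery numbered 55 in place of 94. With a read minimum of 50 there were 12 exonic clusters with 2267 reads, on 5 genes, and 4 genes had a 3' UTR cluster. Without the deepest cluster of each gene, 2277 exonic reads remained. Without Tnrc6b, an alternative chosen after seeing the data, the 3' UTR share of exonic clusters was 33.3% in place of 45.7%, and the miR-128 share of 3' UTR clusters 38.1%. Requiring 7 paired bases left a miR-128 match in 2.33% of 3' UTR clusters and a miR-26 match in 6.98%, and the central 60 bases alone left 9.30% with miR-128. The shares of all 3' UTR clusters under these settings were not computed, so these values have no like value beside them. By setting, values moved beyond their interval or 1.5 times the main value in 59 of 75 cases with a minimum of 50, 16 of 75 with a minimum of 20, 16 of 29 with 7 bases, 13 of 29 in the central 60 bases, 7 of 11 without the deepest clusters, 5 of 35 without Tnrc6b, 4 of 75 without circRNA clusters, and 0 when multi-gene clusters were left out (of 75), every overlap was counted (of 35) or the longest single 3' UTR was used (of 10). No paired analysis was possible because the table separates no libraries, and for the same reason no replicate could be left out. Clusters below 10 reads are not in the table, which limits every statement that a gene has none.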
